A study of Mus musculus with 74 samples.

Results

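The phagocyte NADPH oxidase is described here through 6 genes: Cybb, Cyba, Ncf1, Ncf4, Rac2 and Hvcn1. They were taken by gene symbol from 2 deposited tables of expression values, one of non-grafted and one of bone-marrow-grafted mice. Each symbol had 1 row in each table, so all 6 were found, out of 23297 features with a symbol and 58976 features in all. The rule names them by symbol and uses no measured value, although the set was drawn up with earlier results of these data known.

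This oxidase is the enzyme with which neutrophils, monocytes, macrophages and microglia make superoxide. Cybb (gp91phox, NOX2) holds the catalytic centre and Cyba (p22phox) is its membrane partner. On activation the cytosolic subunits, among them Ncf1 (p47phox) and Ncf4 (p40phox), join them at the membrane together with the small GTPase Rac2. Hvcn1, a voltage-gated proton channel, carries out the protons that the reaction leaves behind. Neutrophils hold far more of this machinery than resting microglia, so their RNA was followed in every library through S100a8, an abundant neutrophil calcium-binding protein.

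RNA-seq libraries were made from spinal cord microglia and sciatic nerve macrophages of female mice on the C57BL/6J background. Cells were taken with magnetic beads against CD11b, without enzymatic digestion. CD11b is also carried by neutrophils and monocytes, so the beads do not separate these from macrophages. The disease model carries a human SOD1 transgene with the G93A mutation (mutant hSOD1-G93A), which causes motor neuron disease in mice.

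Non-grafted G93A microglia were collected at the pre-symptomatic stage (mean age 50.8 days, 4 libraries), at onset, defined as the weight peak (105 days, 5), at the early symptomatic stage with 10% weight loss (152.6 days, 4) and at end stage (169.4 days, 4). Non-transgenic C57BL/6J controls (B6) were taken at mean ages of 109.8 and 165.6 days, with 4 libraries each. Controls carrying wild-type human SOD1 (WT) were taken at 107.3 and 165.4 days, again with 4 libraries each. Stage and age rise together within G93A and cannot be told apart there, and no control was of the pre-symptomatic age. G93A nerve macrophages came from the same stages with 3, 3, 4 and 4 libraries, each pre-symptomatic library holding the nerves of 2 mice. A further 4 nerve macrophage libraries of the end-stage age are WT by their description but G93A by title, source and strain, and are called "described as WT" below. All grafted recipients were G93A mice that received marrow at onset, from either G93A or WT donors. Their microglia and nerve macrophages were collected at the early symptomatic and end stages, with 3 libraries per group except 2 for nerve macrophages with WT marrow at the early stage. The share of donor-derived cells in these samples was not analysed here.

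Values are FPKM (fragments per kilobase of feature and scaled to the mapped fragments of the library), whose total per library ran from 483480 to 986659 over the 74 libraries. Read depth is not known. The summed level of 8 microglia markers was 599.8 to 16928 FPKM in the 33 non-grafted microglia libraries and 77.2 to 1218 in the 18 nerve macrophage libraries, while 12 neutrophil markers summed to 33.2 to 81963 and 76850 to 214983. In the nerve macrophage libraries 8 macrophage markers summed to 175 to 711 FPKM, far below their neutrophil markers. There 7 monocyte markers summed to 4033 to 13309 FPKM and 4 erythroid markers to 2521 to 116538. The erythroid sum was 0.37 to 16556 FPKM in the non-grafted microglia libraries. In 4 microglia libraries S100a8 lay between 16679 and 39129 FPKM: G93A onset replicate 5, G93A end stage replicate 4 and WT end-stage age replicates 1 and 2. S100a8 was at 2020 FPKM or lower in the other 29. Mbp, a myelin gene of oligodendrocytes, was high where many members were low: it ranged over 21094 to 24164 FPKM in pre-symptomatic microglia and over 1317 to 8319 at end stage. Onset replicates 1 and 4 held 23950 and 18996 FPKM of it, against a median of 2194 in their group.

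The promoters are shown as a description, and their part in the members' levels was not tested. RefSeq sequence on GRCm38.p6 was matched for 3 of the 6 members and spans 250 bases before to 50 after the gene start, all on the minus strand. Capitals mark matches, on either strand, to GAGGAA, the core of sites bound by the myeloid factor PU.1 (Spi1), or to an interferon-response motif, which reads GAAA, any 2 bases and GAAA again.
Cybb, chrX:9469275-9469574: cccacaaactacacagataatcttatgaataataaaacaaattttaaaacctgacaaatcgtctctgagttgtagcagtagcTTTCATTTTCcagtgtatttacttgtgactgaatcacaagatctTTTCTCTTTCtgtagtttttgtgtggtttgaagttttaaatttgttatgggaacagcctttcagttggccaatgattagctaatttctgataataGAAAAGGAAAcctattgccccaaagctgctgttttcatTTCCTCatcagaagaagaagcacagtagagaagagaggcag
Cyba, chr8:122432891-122433190: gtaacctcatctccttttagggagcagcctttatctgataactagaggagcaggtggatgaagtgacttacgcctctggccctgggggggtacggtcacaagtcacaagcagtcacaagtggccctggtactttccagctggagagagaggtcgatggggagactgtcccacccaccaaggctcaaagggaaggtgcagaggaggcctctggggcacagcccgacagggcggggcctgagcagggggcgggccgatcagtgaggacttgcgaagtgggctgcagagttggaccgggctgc
Ncf1, chr5:134229576-134229875: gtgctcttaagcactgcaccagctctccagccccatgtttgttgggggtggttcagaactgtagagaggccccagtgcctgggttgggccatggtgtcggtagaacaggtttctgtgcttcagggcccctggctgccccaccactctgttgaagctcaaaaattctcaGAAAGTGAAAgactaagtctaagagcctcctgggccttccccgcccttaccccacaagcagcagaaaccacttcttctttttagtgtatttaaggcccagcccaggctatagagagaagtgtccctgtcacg

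The Cybb window held 1 match to GAGGAA, read on the other strand as TTCCTC, at bases 10 to 15 from the gene start. It also held 3 matches to the interferon-response motif, the nearest at 20 to 29 bases before the start. Ncf1 had 1 match to that motif at 73 to 82 bases before its start, and Cyba had none to either motif. Among all 32851 promoter windows of this length, 28.3% held GAGGAA and 3.44% held the interferon-response motif. The matches do not overlap each other and are descriptions of letters only.

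In the deposited coordinates (mm10) Cybb spans chrX:9435254-9469324 on the minus strand and Cyba chr8:122424766-122432940, also minus. Ncf1 lies at chr5:134220053-134229626 (minus) and Hvcn1 at chr5:122209729-122242297 (plus). Ncf4 at chr15:78244811-78262580 (plus) and Rac2 at chr15:78559169-78572784 (minus) lie on the same chromosome. In the GENCODE annotation of that build Hvcn1, Ncf1 and Cyba each overlap a gene on the opposite strand (Tctn1, Gtf2ird2 and Gm20388). The sources used here do not say whether the authors counted by strand, so reads of those pairs may not be told apart.

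Cybb was low in pre-symptomatic microglia and reached about the level of the other subunits by end stage. The pre-symptomatic G93A libraries read 2.43, 0.47, 2.35 and 2.75 FPKM. At onset the 5 libraries read 6.16, 104, 30.6, 10.0 and 356 FPKM, a range wider than that of any other microglia group. Early symptomatic libraries lay at 67.2, 120.4, 74.1 and 54.4 FPKM and end-stage libraries at 133.5, 94.3, 98.8 and 204 (mean 132.6 ± 50.5, SD, n = 4). None of the 13 libraries from onset on overlapped the pre-symptomatic group. In B6 controls Cybb was 1.5, 0.45, 5.44 and 2.26 FPKM at the onset age and 4.80, 1.62, 12.0 and 20.5 at the end-stage age. WT controls gave 7.78, 6.88, 9.06 and 1.13 FPKM at the onset age. At the end-stage age the WT libraries split, with 183 and 114.3 FPKM in the 2 libraries rich in S100a8 and 6.27 and 28.04 in the others. The end-stage G93A libraries thus all exceeded the B6 controls of that age but overlapped the WT controls.

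Cyba, the membrane partner, started at a higher level than Cybb. Pre-symptomatic libraries held 13.3, 10.9, 23.4 and 46.3 FPKM. At onset the values were 16.03, 172, 191, 21.7 and 202 FPKM. The 2 low onset libraries, replicates 1 and 4, are those with high Mbp, and all 6 members had their lowest onset values in them. Early symptomatic libraries read 141, 211, 143 and 114.6 FPKM, and end-stage libraries 214, 221, 196 and 183 (203.6 ± 17.2, SD, n = 4), the tightest of the non-grafted microglia groups for this gene relative to its mean. B6 controls of the end-stage age held 26.3, 17.8, 32.7 and 90.5 FPKM and WT controls 214, 163, 43.2 and 148. End-stage G93A values lay above all B6 values and overlapped the WT range.

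The cytosolic subunits Ncf1 and Ncf4 rose together, to lower levels. Ncf1, the organiser subunit, read 7.28, 7.54, 15.6 and 25.6 FPKM before symptoms and 52.2, 47.2, 59.3 and 99.8 at end stage. Ncf4, which binds phosphoinositides of the phagosome membrane, read 6.74, 5.62, 15.5 and 32.3 FPKM before symptoms and 64.0, 62.5, 62.6 and 189 at end stage. The highest end-stage value of both genes is in replicate 4, the library with 20413 FPKM of S100a8. At onset Ncf1 was 7.33, 50.7, 64.4, 9.31 and 219 FPKM and Ncf4 9.01, 49.96, 85.8, 11.5 and 331, with the top value again in the S100a8-rich library. In WT controls of the end-stage age Ncf4 reached 182 and 126.1 FPKM in the 2 S100a8-rich libraries and 27.7 and 71.7 in the others, and Ncf1 read 89.1, 72.4, 20.8 and 49.99. The WT and end-stage G93A ranges overlapped for both genes.

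Rac2, the haematopoietic Rac GTPase, was highest in the neutrophil-rich libraries. It held 14.7, 12.7, 32.4 and 56.7 FPKM before symptoms, 18.5, 126.3, 148, 23.7 and 929 at onset, 104, 182, 105 and 76.4 at the early symptomatic stage and 166, 147, 137.3 and 469 at end stage. WT controls of the end-stage age read 668, 421, 45.01 and 148 FPKM and B6 controls 26.1, 19.4, 53.1 and 109. The 4 highest Rac2 values of all 33 microglia libraries are those of the 4 S100a8-rich libraries.

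Hvcn1, the proton channel, did not share that feature. It read 12.0, 10.5, 27.7 and 49.3 FPKM before symptoms, 17.1, 155, 162, 26.4 and 113.9 at onset, 106, 155, 108 and 81.3 at the early symptomatic stage and 135.3, 154, 160.0 and 99.1 at end stage. The end-stage value of the S100a8-rich replicate 4 is the lowest of its group. WT controls of the end-stage age gave 107, 102, 31.7 and 96.1 FPKM and B6 controls 22.7, 20.2, 30.0 and 74.2.

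**Figure D1:**
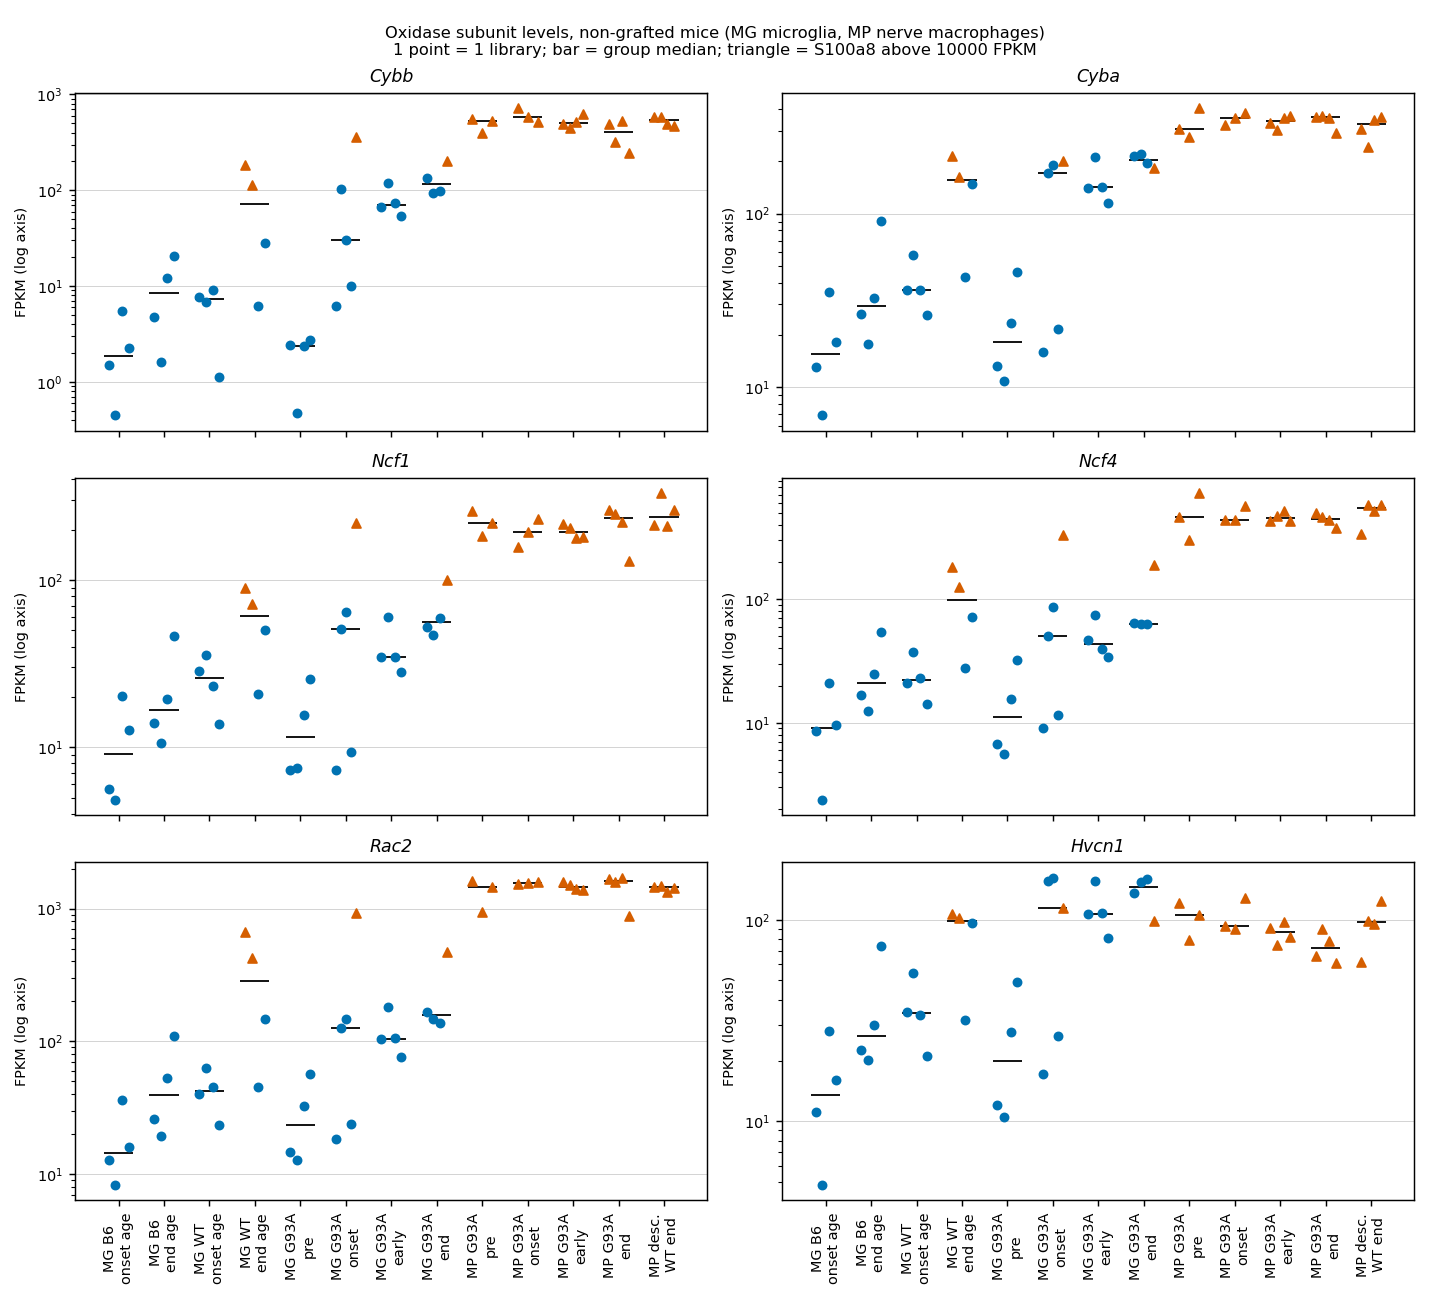
FPKM of the 6 members in every non-grafted library (log axis), by cell type, genotype and stage; each point is 1 library, and triangles mark libraries with S100a8 above 10000 FPKM, a limit that all nerve macrophage libraries pass. Microglia values climb from pre-symptomatic to end stage (Cybb 0.47 to 2.75 against 94.3 to 204), while Cybb in G93A nerve macrophages lies between 247 and 720.4 at every stage.

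Across G93A stages the comparisons share the pre-symptomatic libraries. Changes are differences of log2(FPKM + 1), tested with limma over 11750 features. A feature is called where its p-value, adjusted by Benjamini-Hochberg, is under 0.05. Because 1 is added, these differences understate the change of low genes such as Cybb. At end stage all 6 members were called higher than before symptoms, where 55.9% of all features were called in either direction. Cybb rose by 5.50 ± 0.94 (SE; limma adjusted p = 0.000123) and Cyba by 3.28 ± 0.67 (adjusted p = 0.000565). Ncf1 rose by 2.24 ± 0.70 (limma adjusted p = 0.00942) and Ncf4 by 2.70 ± 0.79 (adjusted p = 0.00638). Rac2 rose by 2.98 ± 0.87 (limma adjusted p = 0.00619) and Hvcn1 by 2.66 ± 0.61 (adjusted p = 0.00129). None of the 6 overlapped between the groups, as was the case for 52.9% of all features. The members' median change was 2.84, beside 0.03 over all features tested. In these bulk samples fewer cells of a type and less RNA per cell cannot be told apart.

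Early symptomatic microglia had 3 members called higher than the pre-symptomatic libraries, with 35.2% of features called: Cybb by 4.76 ± 0.94, Cyba by 2.83 ± 0.67 and Hvcn1 by 2.36 ± 0.61 (limma adjusted p = 0.00095, 0.00396 and 0.00706). Rac2, Ncf4 and Ncf1 differed by 2.14, 1.88 and 1.55 without passing (adjusted p = 0.0548, 0.0624 and 0.0787), and no member overlapped between the groups, nor did 44.3% of all features. At onset the same 3 genes were called, with 25.4% of features called: Cybb by 3.80 ± 0.89, Cyba by 1.86 ± 0.64 and Hvcn1 by 1.66 ± 0.58 (limma adjusted p = 0.0391, 0.0409 and 0.0427). Only Cybb did not overlap there, beside 2.42% of all features. Ncf4, Rac2 and Ncf1 differed by 1.79, 1.93 and 1.45 (adjusted p = 0.0673, 0.0718 and 0.0864). These onset calls rest on single libraries: none of the 6 is called without any 1 of pre-symptomatic replicates 1, 2 or 3 or onset replicates 2, 3 or 5, and 6 are called without onset replicate 1 or replicate 4. Without pre-symptomatic replicate 4, 5 members are called at onset and 6 at the early symptomatic stage. Calls over all features moved at onset as well. Without the 4 S100a8-rich libraries 0 members and 0.379% of features were called, and without onset replicates 1 and 4 together 6 members and 73.8%. Shares of all features are not given for fits without 1 library, so such counts, here and below, are not set against them. The median over the members was 2.25 at the early symptomatic stage and 1.83 at onset, beside 0.05 and 0.14 over all features. S100a8 was 13.96 to 157 FPKM before symptoms, 72.7 to 346 at onset apart from replicate 5 with 39129, 98.7 to 549 at the early stage and 207 to 807 at end stage apart from replicate 4 with 20413.

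Between the symptomatic stages no difference passed. From onset to the early symptomatic stage the 6 changes ran from 0.08 to 0.97. Limma called 0 members, with 0.843% of features called, and 0 members had an unadjusted p under 0.05, beside 12.7% of all features. From the early stage to end stage the 6 changes ran from 0.30 to 0.84, again with 0 called and 0 at an unadjusted p under 0.05. There 0% of features were called, and 339 had an unadjusted p under 0.05.

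Against the controls of the same age, the outcome differed with the control used. G93A and control comparisons of one age share the G93A libraries. At end stage 4 members were called higher in G93A than in B6, with 46.2% of features called: Cybb by 3.98 ± 0.94, Cyba by 2.52 ± 0.67, Rac2 by 2.24 ± 0.87 and Hvcn1 by 2.05 ± 0.61 (limma adjusted p = 0.00217, 0.00487, 0.0377 and 0.00963). Ncf1 and Ncf4 differed by 1.64 and 1.80 (adjusted p = 0.0563 and 0.0627), and no member overlapped, nor did 44.1% of all features. At onset all 6 were called higher than in B6, with 55.1% of features called. The changes were 3.73 for Cybb, 2.20 for Cyba, 1.82 for Ncf1, 2.27 for Ncf4, 2.52 for Rac2 and 2.31 for Hvcn1 (limma adjusted p = 0.00833, 0.0118, 0.0255, 0.0173, 0.0166 and 0.00906). All but Cybb overlapped B6 (8.7% of all features did not), through onset replicates 1 and 4. Only 3 members are called there without onset replicate 3, onset replicate 5 or B6 replicate 2. S100a8 in B6 was 8.99 to 109 FPKM at the onset age and 19.97 to 2020 at the end-stage age.

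Against WT of the same age limma called 0 of the 6 at end stage, with 7% of features called, and none reached an unadjusted p under 0.05, beside 24.4% of all features. Cybb differed by 1.47 ± 0.94 (limma adjusted p = 0.342), Hvcn1 by 0.82 ± 0.61 (0.424) and Ncf4 by 0.01 ± 0.79 (0.997). All 6 groups overlapped. S100a8 in the WT libraries of that age was 32464, 16679, 315 and 1593 FPKM. With libraries weighted by their quality, Ncf4 took the other sign and was called (-0.87, adjusted p = 0.0451), in a fit that called 48.6% of all features. Without the 4 S100a8-rich libraries, which leaves 2 WT and 3 G93A libraries, Cybb was called (2.90, adjusted p = 0.0397), with 14.4% of all features. At onset 0 members were called by limma against WT, with 4.31% of features called, and 1 had an unadjusted p under 0.05, beside 34.7% of all features: Cybb, 2.66 ± 0.89 (adjusted p = 0.053). Without onset replicate 1 there were 3 calls and without replicate 4 there was 1. No member was called between WT and B6 controls, with changes of 1.23 to 2.51 at the end-stage age and 1.07 to 1.36 at the onset age. At these ages limma called 0% of features, with 2421 and 727 at an unadjusted p under 0.05, among them 4 and 1 of the members. With libraries weighted by their quality all 6 members were called between WT and B6 at both ages, and all 6 between onset G93A and WT. Those fits called 75.1% of all features at the end-stage age, 36.1% at the onset age and 67.5% for onset G93A against WT. The median change over the 6 members was 2.14 against B6 and 0.50 against WT at end stage, beside 0.00 and -0.13 over all features. At onset it was 2.29 and 0.97, beside 0.15 and 0.04. The WT libraries of the onset age held 45.7 to 379 FPKM of S100a8.

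**Figure D2:**
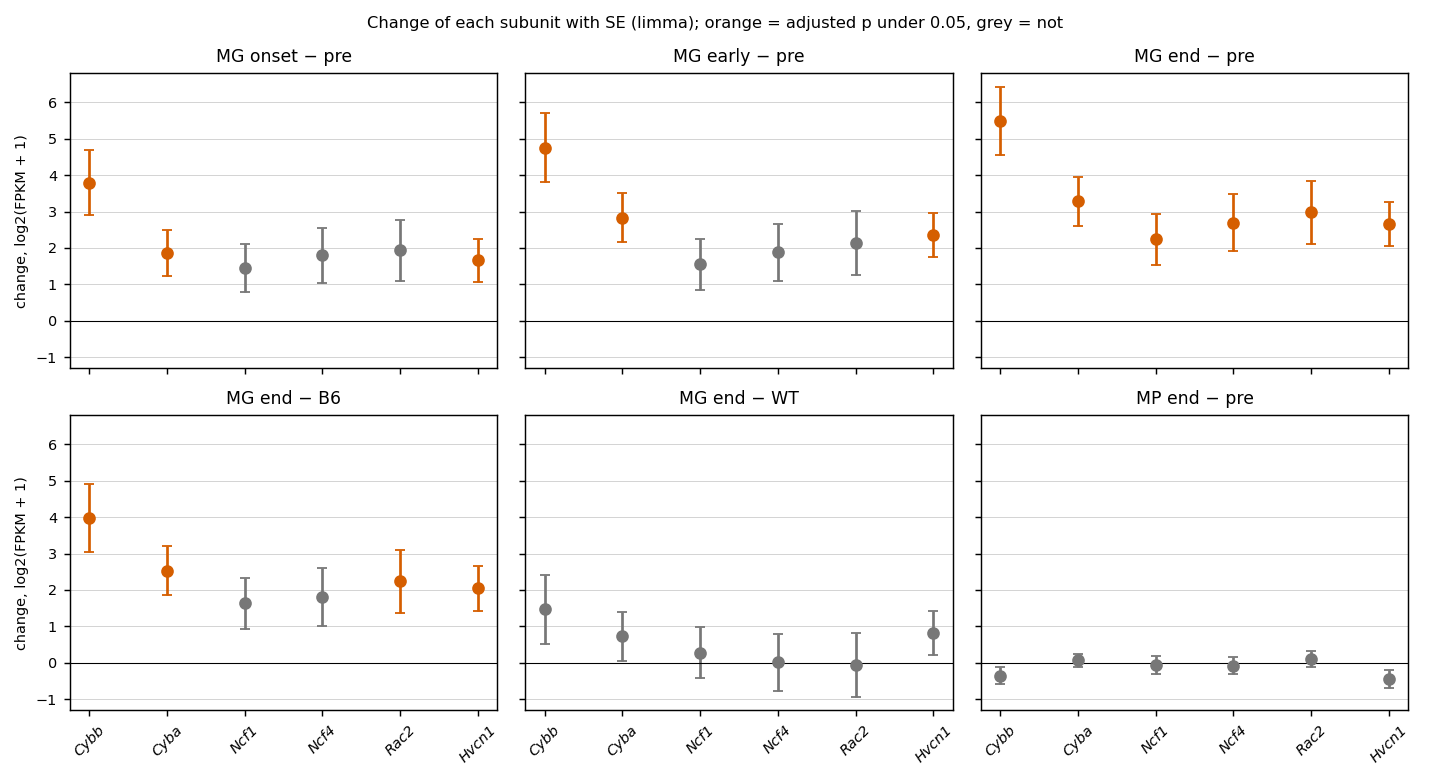
Change of each member, log2(FPKM + 1), in the microglia and nerve macrophage comparisons, with bars of 1 SE; orange points passed limma's adjusted p under 0.05 and grey points did not. In microglia the end-stage to pre-symptomatic changes lie between 2.24 (Ncf1) and 5.50 (Cybb), whereas in nerve macrophages they lie between -0.45 (Hvcn1) and 0.11 (Rac2).

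RNA of other cells moved along the same stages. Beside the list counts that follow, 2914 of all 11750 features (24.8%) were called higher from pre-symptomatic to end stage and 3657 lower. From pre-symptomatic to end stage, 7 of the 8 myelin (oligodendrocyte) genes were called lower (median -1.997), 7 of the 12 neutrophil genes higher (median 4.00), and 7 of the 8 genes common to CD11b-positive cells higher (median 2.20), the exception being Csf1r, the receptor for CSF1 (0.92, limma adjusted p = 0.198). Of 8 microglia markers 2 were called higher. All 6 neuron markers and 7 of 8 astrocyte markers were called lower (medians -2.24 and -3.58). Of the tested markers of macrophages 4 of 5 and of monocytes 2 of 6 were called higher, among them Ms4a7 (6.10) and Cd68 (3.67), and both cell types carry this oxidase. The summed macrophage markers were 86.2 to 369.7 FPKM before symptoms and 722 to 2100 at end stage, and the monocyte markers 6.0 to 25.5 and 33.2 to 5950, without overlap. Their part in the members' changes was not tested. When the mean of the 8 common CD11b-cell genes entered the fit as a covariate, which was chosen after seeing the data, Cybb stayed higher at end stage by 2.96 (adjusted p = 0.0104), Cyba by 0.90 (0.00485) and Hvcn1 by 0.44 (0.0101). Ncf1 (0.07), Ncf4 (0.37) and Rac2 (0.53) were then not called, and 15.5% of all features were. Against B6 of the end-stage age the same 3 genes were called under that covariate: Cybb by 2.11, Cyba by 0.77 and Hvcn1 by 0.41 (adjusted p = 0.035, 0.00667 and 0.00694), with 22.8% of all features. Against WT Hvcn1 alone was called, by 0.47 (adjusted p = 0.000786), with 23.9% of all features. Since 7 of those 8 genes changed themselves, the covariate also takes out any change they share with the members. With S100a8 as covariate Cybb, Cyba and Hvcn1 were still called from pre-symptomatic to end stage, by 3.59, 2.30 and 1.95 (limma adjusted p = 0.000305, 0.00825 and 0.0181), and the other 3 were not, while 35.3% of all features were. With S100a8 and Mbp together as covariates Cybb alone was called there (2.58, adjusted p = 0.00165), with 14.6% of all features. Against B6 of the end-stage age both covariates left Cybb (2.31, adjusted p = 0.000897) and Cyba (1.09, adjusted p = 0.0422), with 24.7% of all features. Mbp was 1317 to 8319 FPKM at end stage, 21094 to 24164 before symptoms and 10881 to 18852 in these B6 libraries. It did not overlap in either comparison, nor did S100a8 between pre-symptomatic and end stage. These covariates thus also take out change that goes with the groups themselves. Against B6 at onset the S100a8 covariate left Cybb (2.29, adjusted p = 0.036; 5.8% of all features), and with both no member and 0.0681% of features were called, Cybb being at 1.31 (adjusted p = 0.588).

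Leaving out onset replicates 1 and 4 for their Mbp, also chosen after seeing the data, removes the onset libraries with the lowest values of every member. All 6 members were then called higher at onset than in WT, Cybb by 4.09 (limma adjusted p = 0.000258) and Ncf1 least by 1.86 (adjusted p = 0.0055), while 67.7% of all features were called.

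Set against Csf1r in the same library, the members separated. The ratio of Cybb to Csf1r had a median of 0.00241 before symptoms and of 0.0940 at end stage. Hvcn1 to Csf1r was 0.0328 to 0.0421 before symptoms, 0.0499 to 0.0939 at onset, 0.0786 to 0.101 at the early symptomatic stage and 0.113 to 0.163 at end stage. Onset and early symptomatic libraries overlapped, and the other neighbouring stages did not. In WT of the end-stage age it was 0.0440 to 0.0741 and in B6 0.0422 to 0.0506, both below every end-stage G93A library. Ncf1 to Csf1r lay between 0.0184 and 0.0256 before symptoms, and end-stage libraries gave 0.0383 to 0.164, with 0.0255 to 0.0619 in WT of that age. The highest end-stage ratios of Cybb, Hvcn1 and Ncf1 are in the S100a8-rich replicate 4, which held the least Csf1r of its group (609 FPKM). For Ncf1 the remaining end-stage libraries lay within the WT range. Cybb to Csf1r also overlapped between end stage and WT of that age. These ratios are descriptions with no test.

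**Figure D3:**
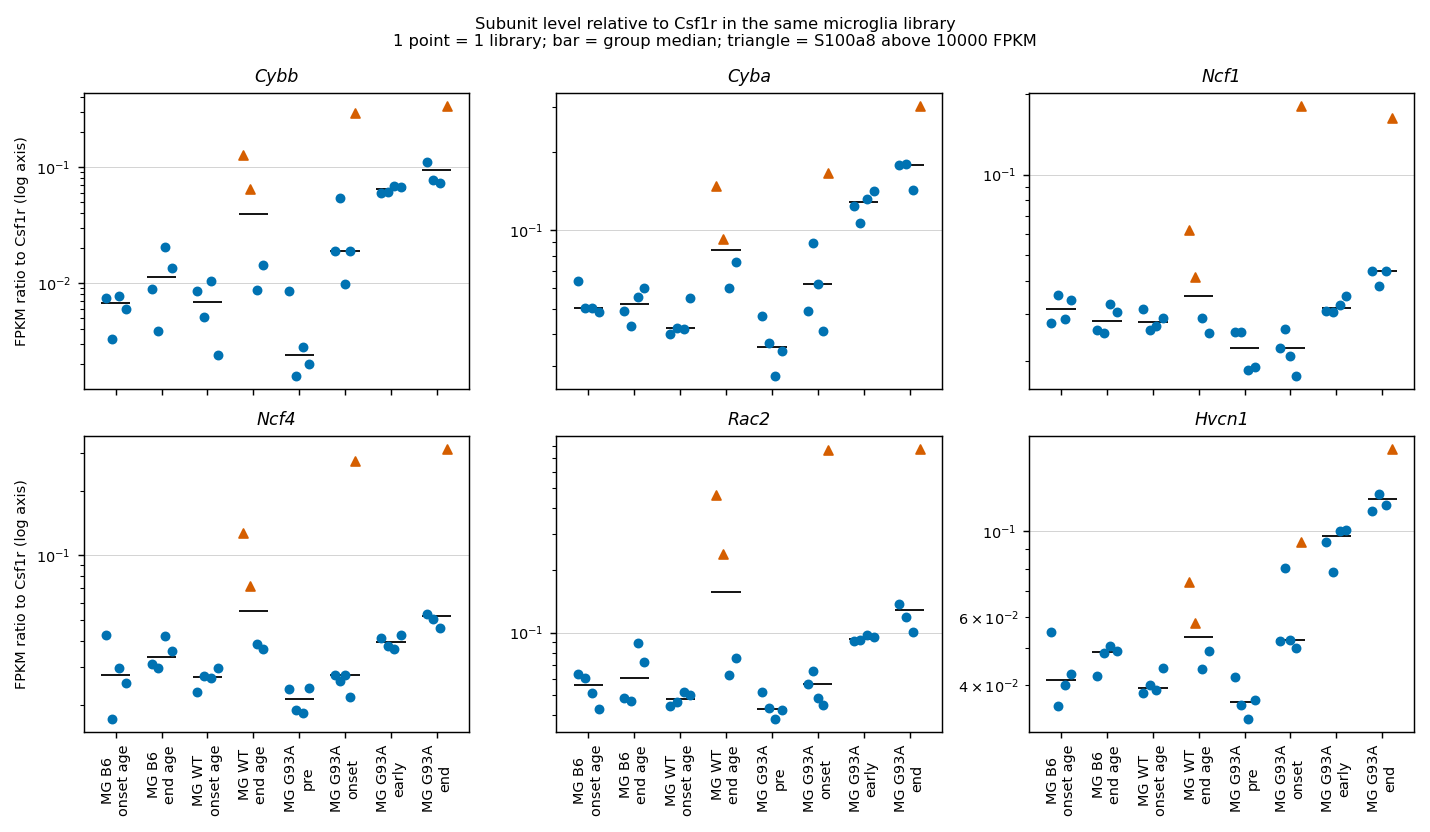
Ratio of the FPKM of each member to that of Csf1r in each non-grafted microglia library (log axis), by group. For Hvcn1 the 4 end-stage G93A libraries (0.113 to 0.163) stand above the WT (0.0440 to 0.0741) and B6 (0.0422 to 0.0506) libraries of that age.

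Nerve macrophage libraries held most members at high levels throughout. Cybb read 552, 399.7 and 524 FPKM before symptoms, 720.4, 587 and 518 at onset, 492, 445, 513 and 619 at the early symptomatic stage and 491, 320.4, 527 and 247 at end stage. The described as WT libraries read 587, 585, 490.3 and 463 FPKM and overlapped every G93A stage. Rac2 was the highest member in all 5 nerve macrophage groups, at 1614, 947 and 1444 FPKM before symptoms and 1672, 1577, 1707 and 874 at end stage. Hvcn1 was the lowest, at 121.4, 78.9 and 105 FPKM before symptoms and 66.4, 90.2, 78.3 and 60.9 at end stage. Group means of the other members lay between 314 and 354 FPKM for Cyba, 194 and 254 for Ncf1 and 443 and 503 for Ncf4.

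By limma, 0 members were called in any of the 5 nerve macrophage comparisons, whose stage comparisons share libraries. From pre-symptomatic to onset the changes ran from -0.19 (Ncf1) to 0.31 (Cybb), with 0% of 10260 features called and 474 at an unadjusted p under 0.05. To the early symptomatic stage they ran from -0.21 to 0.17, with 0% called and 535 at that p. To end stage they ran from -0.45 (Hvcn1) to 0.11 (Rac2), with 0.00975% of features called, which is 1 feature, and 671 at that p. From the early to the end stage they ran from -0.44 (Cybb) to 0.11 (Ncf1), with 0% called and 334 at that p. Between end stage and the libraries described as WT they ran from -0.48 (Cybb) to 0.14 (Cyba), with 0% called and 662 at that p. Of all these member changes 1 had an unadjusted p under 0.05, that of Cybb against the libraries described as WT. S100a8 was 24808 to 80760 FPKM in all 18 libraries, and the part of neutrophil, monocyte or erythroid RNA in these levels was not tested.

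Between the tissues the gap was wide before symptoms and narrower at end stage. Before symptoms all 6 members were called higher in nerve macrophages than in microglia, with 54.7% of 11773 features called, and none overlapped, nor did 54.6% of all features. The differences were 7.43 ± 0.83 for Cybb, 3.96 for Cyba, 4.05 for Ncf1, 5.17 for Ncf4, 5.68 for Rac2 and 2.23 for Hvcn1 (limma adjusted p = 3.48e-09, 5.15e-07, 8.42e-07, 1.01e-07, 8.83e-08 and 0.00069). At end stage 3 were called, with 39.4% of features called: Ncf1 by 1.74 ± 0.58, Ncf4 by 2.39 ± 0.65 and Rac2 by 2.81 ± 0.71 (limma adjusted p = 0.0154, 0.00343 and 0.0017). Cybb and Cyba differed by 1.58 and 0.75 (adjusted p = 0.0978 and 0.286), with no overlap between the tissues, as for 37.2% of all features. For Hvcn1 the sign was the other way at end stage, -0.88 ± 0.51 (adjusted p = 0.173): microglia read 99.1 to 160.0 FPKM and nerve macrophages 60.9 to 90.2, without overlap. With S100a8 as covariate Cybb alone was called before symptoms (3.13, limma adjusted p = 0.00331), with 13.8% of all features. At end stage this covariate turned the sign of Cybb (-1.08, adjusted p = 0.188), Cyba (-0.62) and Ncf1 (-0.10), and Hvcn1 alone was called, lower in the nerve (-1.89, adjusted p = 0.0146), with 17.1% of all features. The median over the members was 4.61 before symptoms and 1.66 at end stage, beside -0.17 and -0.37 over all features. S100a8 at end stage was 207 to 20413 FPKM in microglia and 44054 to 80760 in nerve macrophages. Before symptoms it was 13.96 to 157 and 24808 to 62869. It thus overlapped between the tissues at neither stage. Differences under the S100a8 covariate are therefore extrapolated to levels that the tissues did not share, and tissue and neutrophil RNA cannot be told apart there.

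The difference in change itself, nerve macrophages minus microglia from pre-symptomatic to end stage, was called for 5 members, with 19.8% of features called. It was -5.86 ± 1.13 for Cybb, -3.21 ± 0.81 for Cyba, -2.78 ± 0.96 for Ncf4, -2.87 ± 1.05 for Rac2 and -3.11 ± 0.75 for Hvcn1 (limma adjusted p = 0.000966, 0.00763, 0.0369, 0.0473 and 0.00643). Ncf1 had -2.30 ± 0.85 (adjusted p = 0.0502). With S100a8 as covariate 3 were called, with 8.02% of all features: Cybb (-4.21), Hvcn1 (-2.48) and Cyba (-2.36). The members' median was -2.99 beside -0.18 over all features. The count fell to 3 without any 1 of 8 libraries: microglia pre-symptomatic replicates 1 or 2 or end-stage replicates 1 or 4, and nerve macrophage pre-symptomatic replicates 1 or 3 or end-stage replicates 2 or 4.

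Within a library the balance of the subunits differed between the tissues. Microglia of G93A end stage ran in order of mean level from Rac2 (230.0 FPKM) and Cyba (204) through Hvcn1 (137.2) and Cybb (132.6) to Ncf4 (94.6) and Ncf1 (64.6). All neighbours in that order overlapped except Cyba and Hvcn1. The first place of Rac2 comes from the S100a8-rich replicate 4: in the other 3 libraries Rac2 (mean 150.2) lay below Cyba (210.3) and beside Hvcn1 (149.8). In nerve macrophages at end stage Rac2 (1458) led Ncf4 (443), Cybb (397), Cyba (344), Ncf1 (217) and Hvcn1 (74.0), where Rac2 and Hvcn1 overlapped no other member. Cybb (247 to 527) overlapped Ncf4, Cyba and Ncf1 (130 to 264). Hvcn1 per Cyba was 0.540 to 0.818 in end-stage microglia and 0.185 to 0.247 in nerve macrophages. Rac2 per Rac1, its ubiquitous relative, had a median of 0.580 in end-stage microglia and 7.09 in nerve macrophages. Rac2 per Cyba was 2.99 to 6.11 in the 18 nerve macrophage libraries, 2.56 to 4.60 in the 4 S100a8-rich microglia libraries and 0.670 to 1.62 in the other 29. The S100a8-rich microglia libraries did not overlap the other microglia libraries in this ratio.

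**Figure D4:**
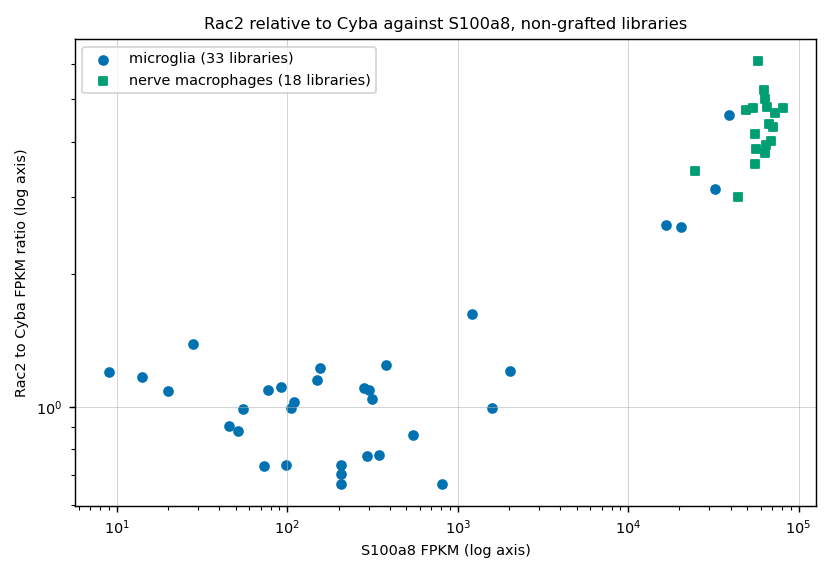
Ratio of Rac2 to Cyba FPKM against S100a8 FPKM (both axes log) in the non-grafted libraries, each point 1 library. The 4 microglia libraries above 10000 FPKM of S100a8 (2.56 to 4.60) lie with the nerve macrophages (2.99 to 6.11) and apart from the other 29 microglia libraries (0.670 to 1.62).

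Other genes of the pathway were followed in lists. Among partners and family members 12 were listed and 5 tested in microglia. From pre-symptomatic to end stage Noxo1, an organiser of another NADPH oxidase, fell by 0.61 (limma adjusted p = 0.024). Rac1 stayed between group means of 263 and 293 FPKM in all 8 microglia groups. Beside these lists stand 24.8% of all features called higher in this comparison. Of 17 tested genes that act in oxidase activation, 9 were called higher and 3 lower at end stage (median 0.94), led by Arhgdib (2.82), a GDP-dissociation inhibitor of blood cells, the Rac exchange factors Vav1 (1.95) and Dock2 (1.66), and the kinase Prkcd (1.54). Of 8 transcription factors known to act on these genes 7 were called higher and none lower (median 1.84), led by Cebpb (2.30), Spi1 (2.06), Irf8 (2.00) and Cebpa (1.94). Against WT of the end-stage age limma called 0 of these 8 transcription factors, and 0 had an unadjusted p under 0.05, beside the 24.4% of all features given above.

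In nerve macrophages at end stage against microglia, the factors went both ways: Cebpe (5.06), a factor of late neutrophil development, and Cebpb (1.65) were called higher, and Cebpa (-2.25) and Irf8 (-2.02) lower. From pre-symptomatic to end stage within nerve macrophages 0 of the 8 transcription factors, 0 of the 17 activation genes and 0 of the 4 tested partners were called by limma. At an unadjusted p under 0.05 there were 0, 3 and 0, beside 6.54% of all features.

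As a description, every pair of members correlated across the 33 microglia libraries with Pearson's r from 0.884 (Rac2 and Hvcn1) to 0.987 (Ncf4 and Rac2) on the log2 scale. The libraries share their stage, their microglia share and their neutrophil RNA. Over the 18 nerve macrophage libraries the pairs had r from -0.043 (Cyba and Ncf1) to 0.638 (Ncf4 and Hvcn1). The features most like Cybb in microglia were Lyz2 // Lyz1, lysozyme genes that share 1 row, Fgr and Lilr4b (r = 0.988, 0.984 and 0.981). Cyba was most like Fcer1g, Hcls1 and Itgb2 (0.990, 0.989 and 0.988). Ncf1 was most like Rhog, Fes and Rgs19 (0.985, 0.982 and 0.981). Ncf4 and Rac2 shared Arhgdib as nearest feature (0.993 and 0.995), followed for Ncf4 by Rac2 and Coro1a and for Rac2 by Pilra and Ostf1. Hvcn1 stood with a row of Ugt1a genes, Man2b1 and Arhgap25 (0.995, 0.993 and 0.990). In nerve macrophages the nearest features were Aldh3b3 for Cybb (0.844), Pfn1 for Cyba (0.940), Sh2d3c for Ncf1 (0.861), Cep19 for Ncf4 (0.917), Abtb1 for Rac2 (0.939) and Tfdp1 for Hvcn1 (0.801). Ly6g, a neutrophil surface gene, was the second nearest to Rac2 (0.882).

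In grafted mice, whose table is not compared by test with the non-grafted one, microglia with G93A marrow read 116.4, 170.0 and 158 FPKM of Cybb at the early symptomatic stage and 98.6, 58.6 and 130.03 at end stage. With WT marrow they read 143, 159 and 46.7 FPKM early and 136.3, 96.2 and 122.7 at end stage. The groups overlapped at both stages. Replicate 3 of the early WT-marrow group was low in all 6 members and had 21258 FPKM of Mbp, against a group median of 5325. Between the marrows at the early stage the changes, WT minus G93A, ran from -1.09 (Rac2) to -0.51 (Cybb), and limma called 0 members and 0% of 11143 features, with 1229 at an unadjusted p under 0.05. Among the members 2 were at that p: Rac2 (-1.09 ± 0.45, adjusted p = 0.422) and Ncf1 (-0.91 ± 0.39, adjusted p = 0.429), each without overlap between the marrows, as for 10.9% of all features. Without replicate 3 they were -0.60 and -0.45. At end stage the marrow changes ran from -0.41 to 0.36, with 0% called and 53 features at an unadjusted p under 0.05. From early to end stage they ran from -0.68 to 0.28 with G93A marrow (0% called, 95 at that p) and from 0.20 to 1.00 with WT marrow (0% called, 1011 at that p, among them Cyba and Hvcn1). S100a8 in these 12 libraries was 17.8 to 6605 FPKM, the top value in early G93A-marrow replicate 3.

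Grafted nerve macrophages with G93A marrow read 285, 391 and 705 FPKM of Cybb at the early stage and 430.1, 427 and 406 at end stage. With WT marrow they read 526.04 and 535 FPKM early and 216, 399.8 and 462 at end stage. The WT-marrow groups did not overlap between the stages for Cybb, Hvcn1 and Rac2, nor did they for 21.9% of all features. For Cybb the marrows overlapped at end stage. Hvcn1 read 141, 202 and 79.0 FPKM with G93A marrow at end stage and 37.2, 68.9 and 45.2 with WT marrow, without overlap. Rac2 read 2575, 2263 and 1962 FPKM with G93A marrow and 440.5, 1501 and 1158 with WT marrow, also without overlap. Of all features 23% did not overlap there. Neither passed the test: Hvcn1 differed by -1.41 ± 0.59 (limma adjusted p = 0.279) and Rac2 by -1.30 ± 0.53 (adjusted p = 0.272). Both had an unadjusted p under 0.05, as had 1588 of 10299 features, of which 0% were called. At the early stage the marrow changes ran from 0.001 to 0.84, with 0% called and 245 at that p. From early to end stage the changes ran from -0.03 to 0.80 with G93A marrow (0% called, 435 at that p) and from -1.80 (Hvcn1) to -0.08 with WT marrow (0% called, 847 at that p, Hvcn1 among them). S100a8 was 28891 to 53337 FPKM at end stage and 8355 to 71623 at the early stage.

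**Figure D5:**
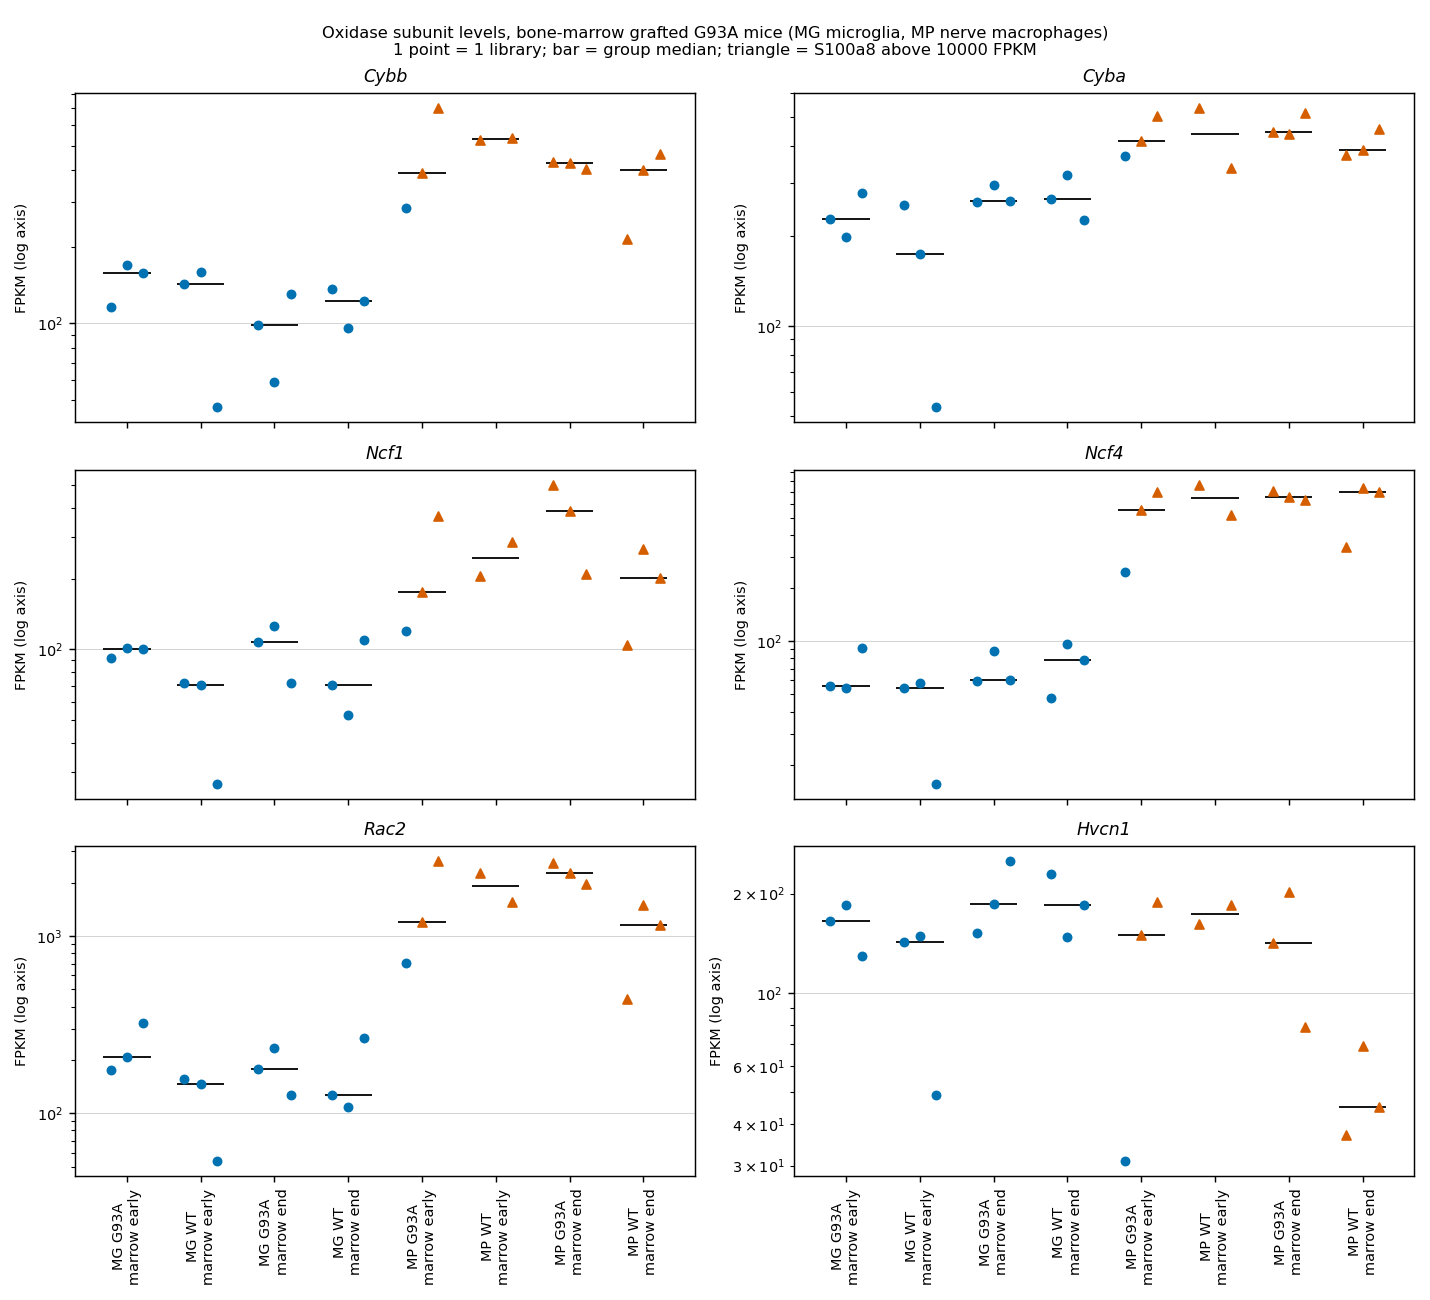
FPKM of the 6 members in every grafted library (log axis), by cell type, marrow and stage, each point 1 library and triangles those with S100a8 above 10000 FPKM. In microglia the early WT-marrow replicate 3 is the low point of its group (Cybb 46.7), and in nerve macrophages at end stage Hvcn1 is 79.0 to 202 with G93A marrow and 37.2 to 68.9 with WT marrow.

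Between grafted nerve macrophages and grafted microglia at end stage, both with G93A marrow, 4 members were called higher in the nerve, with 27.9% of 11248 features called. Cybb differed by 2.20 ± 0.43, Ncf1 by 1.78 ± 0.46, Ncf4 by 3.26 ± 0.46 and Rac2 by 3.69 ± 0.52 (limma adjusted p = 0.000704, 0.00647, 3.09e-05 and 3.02e-05). Cyba differed by 0.77 ± 0.39 (adjusted p = 0.149), and Hvcn1 by -0.55 ± 0.53 (adjusted p = 0.472), with overlap between the tissues only for Hvcn1, while 55% of all features did not overlap. S100a8 was 289 to 448 FPKM in these microglia and 28891 to 42063 in the nerve macrophages. With S100a8 as covariate Ncf4 (2.33) and Rac2 (2.22) were called (limma adjusted p = 0.0316 and 0.0364), with 5.53% of all features, and Cybb was not (1.56, adjusted p = 0.128). As S100a8 did not overlap between these tissues either, these values are extrapolated too.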

How the data were processed

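The values are FPKM, deposited by the authors in one table per experiment with decimal commas. Per the submitters' processing notes the tools were DESeq2 under R 3.2.5, SAMtools, Picard and FastQC, on mm10, with no roles stated. The aligner, counter, strand use and feature lengths were not given in these sources. Per the labels, replicates are separate mice, and pre-symptomatic nerve libraries pool 2.

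Features with a symbol and a mean of at least 1 FPKM over the libraries of a fit were kept. Group means of log2(FPKM + 1) were fitted with limma 3.58.1 (lmFit, eBayes with trend) in R 4.3.3, separately for microglia, nerve macrophages and both, and likewise for grafted mice. The 28 contrasts were adjusted over all features by Benjamini-Hochberg and called under 0.05. The script was tested on simulated data. Figures and summaries used Python 3.11.15 and matplotlib 3.10.9. Alternatives changed the pseudocount, filter, scaling, covariates, weights and libraries.

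The members, marker lists and pathway lists were chosen with earlier results of these data known. Named genes are all members, up to 4 called genes per list and comparison by size of change, the 3 features most correlated with each member, S100a8, and Rac1, Itgam, Csf1r, Spi1 and Irf8. Mbp and Hba-a1 were named after their values were seen. Some results that this rule covers are not reported here.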

Additional observations from a re-analysis of the deposited data

Results flagged for a closer look

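In groups of 4 or 5 libraries, 7 of 66 combinations of a member and a group held a library that stood apart by Dixon's criterion, which chance meets in about 1 of 20 groups. In microglia these were Cybb in pre-symptomatic replicate 2 (0.47 FPKM) and in WT onset-age replicate 4 (1.13 FPKM), and Hvcn1 in WT end-stage-age replicate 3 (31.66 FPKM). End-stage microglia replicate 4, with 20413 FPKM of S100a8, stood apart for Ncf4 (189.17 FPKM) and Rac2 (469.36 FPKM). End-stage nerve macrophage replicate 4, with 44054 FPKM of S100a8, stood apart on the low side for Cyba (292.0 FPKM) and Rac2 (874.14 FPKM). This library held 115143 FPKM of the erythroid marker Hba-a1, against 23123, 16550 and 3286 in the others of its group. The part of erythroid RNA in its low values was not tested.

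From pre-symptomatic mice to end stage the change differed between nerve macrophages and microglia by limma's test of the difference itself. The differences were -5.858 for Cybb, -3.21 for Cyba, -2.775 for Ncf4, -2.867 for Rac2 and -3.108 for Hvcn1 on the log2 scale.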

How the results depend on the processing

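All of these values rest on FPKM of unknown read depth, so counting error could not be set apart from the spread between mice, and low values of Cybb have no interval. Of the 28 counts of called members, 12 stayed within 1.5 times under every alternative. These 12 all had 0 members and at most 0.00975% of features called in the main fit. Every count above 0 moved under at least 1 alternative. The 62 member changes printed singly were chosen after seeing the data. Over their 1103 alternative values 883 kept direction and side of the threshold, 65 newly passed, 20 took the other sign and the rest no longer passed. Over all 168 member changes and 2826 alternative values, 186 changed sign, 1 of them called.

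Counts of called members moved as follows, with the share of all features called in the same fit in brackets. The cause was not tested. Without the filter, onset to pre-symptomatic had 0 (0.0391%) and the difference in change 3 (10.1%). The latter also had 3 with a pseudocount of 0.1 (13%). Fitting only the groups compared gave 0 for onset to B6 (0%) and 0 for onset to pre-symptomatic (0%). It gave 6 for early to pre-symptomatic (46.5%) and 6 for nerve to microglia at end stage (36.7%). S100a8 as covariate gave 1 for end stage to WT (14.3%), 1 for onset to WT (6.37%) and 1 for onset to B6 (5.8%). Against pre-symptomatic it gave 0 at onset (0.034%) and 3 at end stage (35.3%). For nerve to microglia it gave 1 before symptoms (13.8%), 1 at end stage (17.1%) and 2 in grafted mice (5.53%). The difference in change had 3 (8.02%). S100a8 and Mbp as covariates gave 1 for end stage to WT (16.5%), 2 to B6 (24.7%) and 1 to pre-symptomatic (14.6%). They gave 0 for onset to B6 (0.0681%) and to pre-symptomatic (0%), and 3 for early symptomatic to onset (17.7%). Without the S100a8-rich libraries there were 1 for end stage to WT (14.4%), 0 for onset (0.379%) and 6 for early to pre-symptomatic (42.3%). The replicate block gave 3 for onset to B6 (26.3%), 0 for onset (0%) and 6 for early to pre-symptomatic (38.3%). Library quality weights gave 2 for end stage to WT (48.6%) and 6 for onset to WT (67.5%). They gave 6 for WT to B6 at the end-stage (75.1%) and onset (36.1%) ages. Onset and early to pre-symptomatic had 6 each (76% and 71.1%), and the marrows in early grafted microglia 3 (44.7%). The CD11b-cell term gave 1 for end stage to WT (23.9%) and 0 for onset to B6 (0.111%). Against pre-symptomatic it gave 0 at onset (0%), 0 at the early stage (9.46%) and 3 at end stage (15.5%). Without libraries far in Mbp there were 6 for onset to WT (67.7%) and 3 for WT to B6 at the end-stage age (11.1%). Onset and early to pre-symptomatic then had 6 each (73.8% and 51.6%). Leaving out 1 library gave 0 to 3 for onset to WT, 3 to 6 for onset to B6, 0 to 6 for onset and 3 to 6 for early to pre-symptomatic, 3 to 6 for the difference in change, and 0 to 1 for grafted microglia with WT marrow, end to early stage (1 without early replicate 1). Shares of all features are not given for those fits.

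These changes took the other sign. With S100a8 and Mbp they were Ncf1 onset to B6 (-0.109), and, against pre-symptomatic, Cyba (-0.053), Ncf1 (-0.447), Ncf4 (-0.228) and Rac2 (-0.332) at onset and Ncf1 at end stage (-0.037). With S100a8 alone they were Cybb (-1.079), Cyba (-0.623) and Ncf1 (-0.104) between nerve and microglia at end stage, where S100a8 itself did not overlap. With the CD11b-cell term they were Cyba (-0.124), Ncf1 (-0.298) and Ncf4 (-0.001) from onset to B6 and Ncf1 (-0.527), Ncf4 (-0.349) and Rac2 (-0.197) from early to pre-symptomatic. Ncf4 from end stage to WT was -0.872 with quality weights (called, limma adjusted p = 0.0451), -0.354 with the CD11b-cell term, and ran from -0.504 to 0.387 when 1 library was left out (-0.384 without G93A replicate 4, -0.504 and -0.058 without WT replicates 3 and 4).

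Median-ratio scaling moved the median of all features by over 0.1 in 8 comparisons, most before symptoms between the tissues (-0.417) and in the difference in change (0.383, with 4 members called). The S100a8 alternative was not run for grafted microglia, where no library passed 10000 FPKM, and the weights of these libraries (0.0969 to 354) came from an estimate that had not converged. Replicate numbers gave deviations correlated over 0.1 in 40 same-number pairs of microglia groups (median over all such pairs -0.028), 3 of 33 in nerve macrophages, 7 of 18 in grafted microglia and 3 of 15 in grafted nerve macrophages, so the block shares only a number. The CD11b-cell and Mbp alternatives were added after seeing the data.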
